A study of Mus musculus with 12 samples.

Results

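The 46 genes described here are members of the machinery of the cell division cycle, taken by symbol from a table of 36512 genes. They comprise a replication set of 20 genes (Mcm2, Mcm3, Mcm4, Mcm5, Mcm6, Mcm7, Pcna, Rrm1, Rrm2, Tyms, Gins2, Cdc6, Cdt1, Cdc45, Pola1, Pole, Ccne1, Ccne2, E2f1 and Uhrf1), a mitosis set of 20 genes (Mki67, Top2a, Cdk1, Ccna2, Ccnb1, Ccnb2, Aurka, Aurkb, Plk1, Bub1, Bub1b, Birc5, Cenpa, Cenpe, Cenpf, Kif11, Tpx2, Cdc20, Nusap1 and Ube2c) and 6 regulators (Cdkn1a, Cdkn1b, Cdkn2c, Ccnd1, Ccnd2 and Ccnd3). All 46 were found in the table and all 46 passed the filter on low counts. Poly(A) RNA was sequenced from cells sorted by flow cytometry out of the aorta and its perivascular fat, the adipose layer around the vessel wall. All groups were wild type CD-1 mouse pups at postnatal day 3, of both sexes mixed, and no group carried a treatment or an allele that another lacked. The groups were 4 sorted populations, named progenitor, intermediate, preadipocyte and smooth muscle in the labels, with 3 libraries each. The surface markers and gates of the sort, and whether the libraries of a population came from separate litters or pools of pups, are not stated in the labels, so the tests measure the spread between these libraries, which may be technical.

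A dividing cell copies its DNA in S phase and separates the copies in mitosis, and each step draws on its own group of transcripts. Cyclin D kinases, held back by CDK inhibitors, release E2F factors from the RB family, and E2F then activates genes of DNA replication, whose transcripts rise as cells enter S phase. Genes of mitosis are switched on later, in G2, by the MuvB complex with B-MYB and FOXM1, which reads the CHR element, often together with NF-Y at CCAAT boxes. In young adipose tissue the division of preadipocytes precedes and accompanies their differentiation. In bulk RNA the level of these transcripts depends, among other things, on the share of dividing cells in a sample.

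The 250 bases upstream of the start of 3 members of each set are shown as examples of the E2F and CHR letters, in which the sets differed. Whether these letters had a part in the levels of the members was not tested. Windows from 250 bases before to 50 after a RefSeq start (GRCm38.p6) were matched by symbol for 37 of the 46 members, 16 of them replication, 17 mitosis and 4 regulator genes. No window was matched for Mcm4, Gins2, Pole, Ccne2, Ccna2, Aurkb, Tpx2, Ccnd1 and Ccnd2. The sequences printed are the 3 members of each set with the highest mean CPM over the 12 libraries among those with an upstream match, read 5′ to 3′ on the strand of the gene, with matches in capitals. For the replication genes Mcm6 (chr1:128359706-128359955, minus strand), Mcm5 (chr8:75109259-75109508, plus strand) and Mcm7 (chr5:138171884-138172133, minus strand), all encoding subunits of the replicative helicase, the capitals mark the E2F letters TTTCGCGC, TTTGGCGC, TTTCCCGC or TTTGCCGC on either strand, and in Mcm6 and Mcm5 matches on opposite strands overlap.
Mcm6: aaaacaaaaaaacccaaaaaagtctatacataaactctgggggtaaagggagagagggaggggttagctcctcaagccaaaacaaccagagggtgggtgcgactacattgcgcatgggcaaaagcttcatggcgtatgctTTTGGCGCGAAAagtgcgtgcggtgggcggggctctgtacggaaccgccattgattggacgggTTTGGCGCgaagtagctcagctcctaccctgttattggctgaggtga
Mcm5: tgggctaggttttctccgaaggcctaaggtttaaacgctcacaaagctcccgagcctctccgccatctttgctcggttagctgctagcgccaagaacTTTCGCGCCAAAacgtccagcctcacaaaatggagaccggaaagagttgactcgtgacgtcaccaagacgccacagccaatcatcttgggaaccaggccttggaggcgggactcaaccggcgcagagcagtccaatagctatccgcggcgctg
Mcm7: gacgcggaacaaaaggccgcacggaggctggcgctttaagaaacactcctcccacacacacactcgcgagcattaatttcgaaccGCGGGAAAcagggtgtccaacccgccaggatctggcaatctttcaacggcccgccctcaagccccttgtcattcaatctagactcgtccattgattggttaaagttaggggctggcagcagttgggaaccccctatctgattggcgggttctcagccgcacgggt
For the mitosis genes Top2a (chr11:99024190-99024439, minus strand), which encodes the topoisomerase that untangles sister chromatids, Mki67 (chr7:135716380-135716629, minus strand), which encodes the Ki-67 coat protein of mitotic chromosomes, and Ube2c (chr2:164769679-164769928, plus strand), which encodes the ubiquitin-conjugating enzyme of the anaphase-promoting complex, the capitals mark the CHR letters TTTGAA on either strand.
Top2a: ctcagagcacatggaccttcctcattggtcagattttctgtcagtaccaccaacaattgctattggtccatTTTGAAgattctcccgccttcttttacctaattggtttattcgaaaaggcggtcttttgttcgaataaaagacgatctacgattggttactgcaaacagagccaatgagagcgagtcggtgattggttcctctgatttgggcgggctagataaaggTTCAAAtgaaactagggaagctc
Mki67: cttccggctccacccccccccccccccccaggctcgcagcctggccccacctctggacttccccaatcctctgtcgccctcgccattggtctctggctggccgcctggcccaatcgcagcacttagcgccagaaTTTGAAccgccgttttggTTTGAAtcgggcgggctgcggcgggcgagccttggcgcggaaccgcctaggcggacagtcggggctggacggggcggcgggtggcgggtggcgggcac
Ube2c: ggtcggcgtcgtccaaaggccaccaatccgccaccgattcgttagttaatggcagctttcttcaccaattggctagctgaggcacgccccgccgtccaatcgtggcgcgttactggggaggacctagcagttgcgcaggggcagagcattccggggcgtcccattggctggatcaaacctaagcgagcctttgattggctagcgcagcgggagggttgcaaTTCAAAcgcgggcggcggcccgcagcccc
E2F letters were found in the windows of 8 of 16 replication genes (50%) and 1 of 17 mitosis genes (5.88%, Cdk1), against 2.6% of the 27025 genes of the reference table. CHR letters were found in 12 of 17 mitosis genes (70.6%) and 2 of 16 replication genes (12.5%, Mcm2 and Cdc45), against 20.2% of all genes. In all 12 of those mitosis genes the CHR match closest to the start lay between 100 bases upstream and the end of the window, as it did in both replication genes with CHR letters. E2F letters lay in that stretch in 4 of the 8 replication genes. CCAAT, counted on either strand, was found in 15 of 17 mitosis genes (88.2%) and 11 of 16 replication genes (68.8%), against 41.1% of all genes. CHR and CCAAT occurred in the same gene's windows in 12 of 17 mitosis genes (70.6%), 2 of 16 replication genes (12.5%) and 8.97% of all genes. None of the 4 regulators with a window held E2F or CHR letters. A match is a run of letters and not a measured binding site.

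The counts of a library summed to between 11701825 and 17123109. Smooth muscle and progenitor libraries carried the markers of their names, and preadipocyte libraries those of adipocytes, summed over 6 genes each and scaled by library size. No list was made of markers that tell preadipocytes from adipocytes. Adipocyte markers were at 3733 to 5468 CPM (a gene's counts scaled to a fixed library total) in preadipocyte libraries and at most 348 elsewhere. Smooth muscle markers were at 7716 to 8682 CPM in smooth muscle and at most 832 elsewhere, and progenitor markers at 3384 to 3837 CPM in progenitor and at most 775 elsewhere. No markers were listed for intermediate, whose libraries held 610 to 832 CPM of smooth muscle markers and 750 to 775 CPM of progenitor markers. No listed marker of any cell type was at 0 in all 3 libraries of a population. The 3 preadipocyte libraries stood apart in their red cell markers, whose 8 measured genes summed to 1342, 1587 and 20221 CPM, against at most 266 CPM in every other library. Smooth muscle libraries held 624 to 820 CPM of Schwann cell and neuron markers and 1173 to 1571 CPM of mesothelial markers, against at most 105 and 153 CPM in the other populations. In bulk samples, fewer cells of a type and less RNA per cell cannot be told apart. Levels below are CPM after TMM scaling (a library factor that centres most genes), given in replicate order, and tests are from edgeR (the quasi-likelihood test, p-values adjusted by Benjamini-Hochberg over 21285 genes). A gene was called at an adjusted p under 0.05, and fold changes are log2 unless written as "fold". The marker sums do not stand for each marker. Of the 6 progenitor markers, 5 were called lower in smooth muscle than in progenitor and 1 was not called, with estimates from -9.15 to -0.28.

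Both sets were at their highest in preadipocyte, with median log2 fold changes between 1.68 and 2.13 over the other populations. Below preadipocyte, on the TMM scale, the mitosis set was lowest in progenitor, and the replication set was at much the same level in all 3. The mean level of the replication set, as the mean over its 20 genes of log2(CPM + 1), was 7.20 ± 0.47 (SD, n = 3) in preadipocyte, against 5.49 ± 0.10 in progenitor, 5.48 ± 0.11 in intermediate and 5.36 ± 0.04 in smooth muscle. Progenitor, intermediate and smooth muscle libraries overlapped in this level. The mean level of the mitosis set was 7.15 ± 0.30 (SD, n = 3) in preadipocyte, against 5.09 ± 0.16 in progenitor, 5.46 ± 0.14 in intermediate and 5.55 ± 0.09 in smooth muscle. All 3 progenitor libraries, at 5.13, 5.22 and 4.92, lay below every intermediate and smooth muscle library.

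The difference between the sets within a library, replication minus mitosis, does not depend on the scaling of the library apart from the added 1. It was 0.37, 0.36 and 0.47 in the progenitor libraries and -0.25, -0.23 and -0.10 in those of smooth muscle, and -0.03, 0.01 and 0.08 in intermediate and -0.12, 0.04 and 0.24 in preadipocyte libraries. The progenitor libraries were the 3 highest of the 12. The smooth muscle libraries were all below the intermediate libraries, while the preadipocyte libraries spread across both and reached down to the range of smooth muscle. The means were 0.40 ± 0.06 (SD, n = 3) in progenitor and -0.19 ± 0.08 in smooth muscle, with 0.02 ± 0.06 in intermediate and 0.05 ± 0.18 in preadipocyte between them. No test was made of these scores, since the members were chosen with results known. As plain sums, the replication genes came to 4102 ± 1387 CPM in preadipocyte and, in the order progenitor, intermediate and smooth muscle, to 1116 ± 75.1, 1076 ± 83.4 and 983 ± 24.02 CPM. The mitosis genes came to 3297 ± 733 CPM in preadipocyte and to 738 ± 85.4, 980.0 ± 98.8 and 1055 ± 66.2 CPM in the same order.

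**Figure D1:**
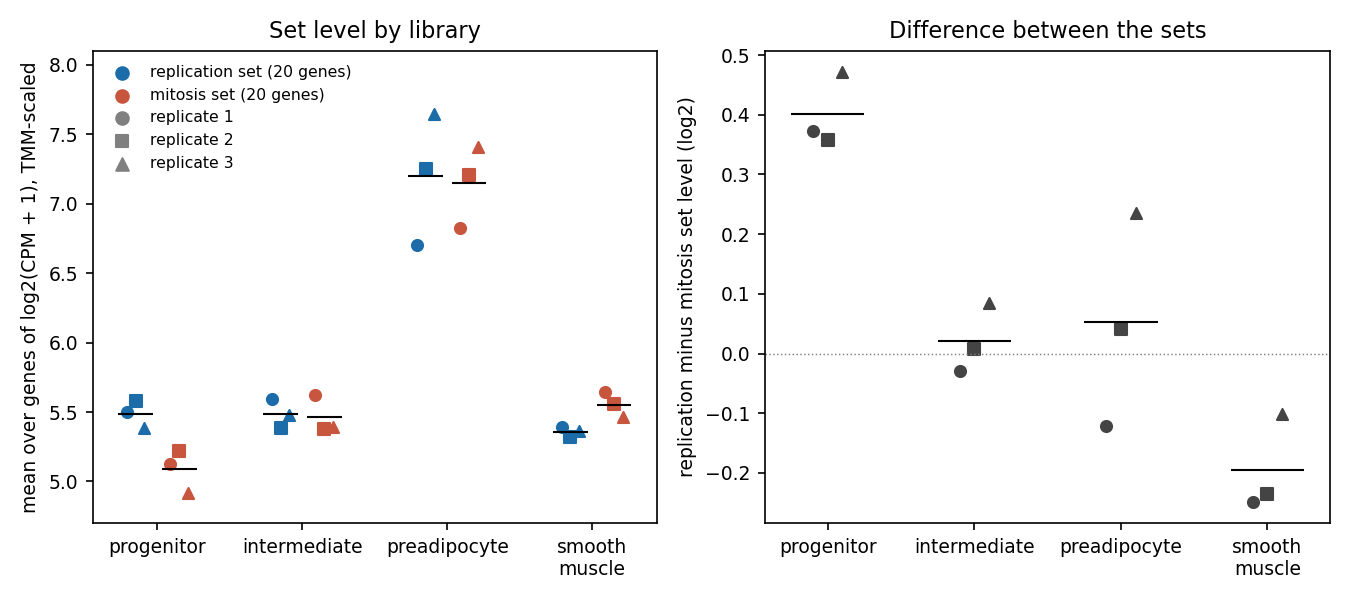
Left, the mean over 20 replication genes (blue) and 20 mitosis genes (red) of log2(CPM + 1) in each library, by population; right, the difference between both values per library. Symbols mark replicates and lines mark means of 3 libraries; preadipocyte libraries are highest for both sets, and the 3 progenitor libraries have the largest difference, between 0.36 and 0.47.

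Against progenitor, 19 of 20 replication genes and 20 of 20 mitosis genes were called higher in preadipocyte, where 25.1% of all genes tested were called higher and 25.9% lower. The median log2 fold change was 1.85 over the replication set and 2.13 over the mitosis set, against 0.04 over all genes. Against intermediate, 19 replication and 20 mitosis genes were called higher (background 26% higher, 31.1% lower), with medians of 1.86 and 1.68, against -0.24 over all genes. Against smooth muscle, 20 and 20 were called higher (background 25.9% higher, 40.7% lower), with medians of 1.98 and 1.69, against -0.35 over all genes. These comparisons share the preadipocyte libraries. No member of either set was called lower in preadipocyte in any of them. The lowest preadipocyte library lay above all 9 other libraries for 20 of 20 mitosis genes and for 19 of 20 replication genes, with E2f1 as the exception. Over the 4 populations, the F test called 19 of 20 replication genes, 20 of 20 mitosis genes and 6 of 6 regulators as differing, where 79.8% of all genes tested did.

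Rrm2, the regulated small subunit of ribonucleotide reductase, which makes deoxynucleotides, had the largest difference of the replication set. Its levels were 83.9, 82.4 and 72.5 CPM in progenitor, 96.6, 72.6 and 79.8 in intermediate, 404, 595 and 903 in preadipocyte and 81.4, 67.8 and 67.5 in smooth muscle. Every preadipocyte library was more than 4 times every other, and the other populations overlapped. Preadipocyte was 7.96-fold above progenitor by edgeR's test (log2 fold change 2.99 with SE 0.23, adjusted p = 3.5e-08). Rrm1, the large subunit of the same enzyme, was at 126, 122 and 113 CPM in progenitor, 120.5, 107 and 111 in intermediate, 286, 444 and 547 in preadipocyte and 104, 111 and 91.7 in smooth muscle. It was 3.54-fold higher in preadipocyte than in progenitor in edgeR's test (log2 fold change 1.82 with SE 0.18, adjusted p = 6.1e-07), less than the fold of Rrm2, and intermediate overlapped both progenitor and smooth muscle. Tyms, which makes thymidylate, had one of the smallest relative spreads of the replication set among preadipocyte libraries (144, 175 and 173 CPM, against 43.00, 53.8 and 37.4 in progenitor).

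The helicase genes Mcm2 to Mcm7 were all called higher in preadipocyte. Mcm6 was at 135, 130.4 and 121 CPM in progenitor, 122, 106 and 106 in intermediate, 258, 378 and 569 in preadipocyte and 113, 105 and 102 in smooth muscle. The 3 preadipocyte libraries stood apart and differed among themselves by more than the other 9 together, and progenitor was 3.12-fold below them by edgeR's test (log2 fold change 1.64 with SE 0.21, adjusted p = 6.2e-06). Mcm5 was at 58.8, 70.03 and 52.7 CPM in progenitor, 62.9, 43.2 and 53.96 in intermediate, 199, 314 and 420.4 in preadipocyte and 63.8, 56.2 and 61.9 in smooth muscle. With a log2 fold change of 2.55 (SE 0.23, adjusted p = 1.1e-07) by edgeR against intermediate, it had the next largest difference of the set after Rrm2 in that comparison. Mcm4 had the smallest difference of the 6 helicase genes against progenitor (1.24, adjusted p = 8.4e-05 by edgeR). Mcm4 was also the helicase gene called lower in smooth muscle than in progenitor (log2 fold change -0.55 with SE 0.20, adjusted p = 0.03 by edgeR), at 70.8, 70.4 and 60.5 CPM against 97.6, 94.9 and 103, with no overlap between libraries. That call was lost in 4 of 10 other processings.

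Among the genes that license and fire origins, Cdc6, the loader of the helicase, was at 12.9, 11.97 and 11.1 CPM in progenitor, 15.6, 11.95 and 12.2 in intermediate, 31.3, 49.98 and 132 in preadipocyte and 14.6, 12.98 and 9.61 in smooth muscle. Its preadipocyte values ran from 31.3 to 132 CPM, the widest relative spread of either set, with replicate 3 far above the other two. Preadipocyte was 5.92-fold above progenitor by edgeR (log2 fold change 2.57 with SE 0.38, adjusted p = 3.5e-05). Its partner Cdt1 (2.34) and the helicase cofactor Cdc45 (2.25) were also higher by edgeR, with adjusted p = 1.4e-06 and 3.3e-08. Gins2, a subunit of the GINS helicase cofactor, was at 24.7, 22.02 and 16.7 CPM in progenitor, 15.7, 15.1 and 12.99 in intermediate, 41.8, 50.7 and 43.3 in preadipocyte and 11.98, 14.5 and 12.8 in smooth muscle. Besides its rise in preadipocyte (1.10, adjusted p = 3.3e-05 by edgeR), Gins2 was lower than in progenitor in intermediate (-0.53, adjusted p = 0.027) and in smooth muscle (-0.69, adjusted p = 0.0027). Of its 4097 annotated exon bases 2758 overlap Gse1 on the other strand, and the labels do not say whether the counting used strand, so reads of both genes may not have been separated.

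Pcna, the sliding clamp of DNA polymerases, was at 122, 124 and 113 CPM in progenitor, 125, 106 and 112 in intermediate, 205, 242 and 399 in preadipocyte and 101.3, 100.1 and 114 in smooth muscle. The other populations overlapped and ran from 100.1 to 125 CPM, below all 3 preadipocyte libraries. Its 2.36-fold difference from progenitor by edgeR (log2 fold change 1.24 with SE 0.19, adjusted p = 4.9e-05) was among the smaller ones of the set. Pola1, the catalytic subunit of the primase polymerase, had a log2 fold change of 1.58 against progenitor (adjusted p = 5.7e-07 by edgeR). Pole, the leading strand polymerase, departed from the rest of its set. Its levels were 13.8, 16.8 and 16.1 CPM in progenitor, 23.3, 25.6 and 24.6 in intermediate, 27.96, 37.96 and 42.5 in preadipocyte and 27.04, 25 and 27.9 in smooth muscle. All intermediate and smooth muscle libraries were above all progenitor libraries, and the lowest preadipocyte library barely exceeded the highest smooth muscle library. Pole was the replication gene called higher in intermediate (log2 fold change 0.66 with SE 0.16, adjusted p = 0.0079) and in smooth muscle (log2 fold change 0.77 with SE 0.16, adjusted p = 9.5e-04) than in progenitor by edgeR. With 11160 annotated exon bases it is also the longest gene of the set. Its call in intermediate was kept in 8 of 10 other processings, and lost without a filter and with the trend of exon length removed. It was made in 7 of 12 fits that left out 1 library with filter and factors set anew. Rrm1, with 11012 annotated exon bases, had log2 fold changes of -0.09 and -0.23 there. The part of exon length in the values of single genes was not tested.

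The cyclins E, which drive the entry into S phase, did not behave alike. Ccne1 was at 59.9, 60.8 and 51.9 CPM in progenitor, 67.1, 54.3 and 67.95 in intermediate, 90.2, 131 and 192 in preadipocyte and 28.1, 29.5 and 33.3 in smooth muscle. The smooth muscle libraries were below every other library, with a log2 fold change of -0.93 (SE 0.21, adjusted p = 0.0018) against progenitor and a log2 fold change of -1.06 (SE 0.21, adjusted p = 0.0011) against intermediate with edgeR. The lower level against intermediate was called in all 10 other processings and all 24 fits that left out a library, and that against progenitor in 9 of 10 and all 24. Ccne2 was at 18.7, 21.1 and 17.1 CPM in smooth muscle and 18.8, 14.6 and 20.2 in progenitor, which overlapped (0.09, adjusted p = 0.76 by edgeR). It was higher in preadipocyte, at 47.3, 67.99 and 102 CPM. E2f1, which encodes an E2F activator, was the 1 replication gene not called in preadipocyte against progenitor (log2 fold change 0.22 with SE 0.20, adjusted p = 0.40 by edgeR). Its levels were 33.9, 51.98 and 40.1 CPM in progenitor, 44.2, 35.1 and 39.6 in intermediate, 34.1, 53.2 and 59.4 in preadipocyte and 30.8, 26.6 and 35.7 in smooth muscle, with overlap between all populations but preadipocyte replicates 2 and 3 at the top. Uhrf1, which carries DNA methylation through replication, was at 196, 325 and 325 CPM in preadipocyte against 55.5, 62.5 and 50.9 in progenitor (2.32, adjusted p = 2.4e-08 by edgeR).

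**Figure D2:**
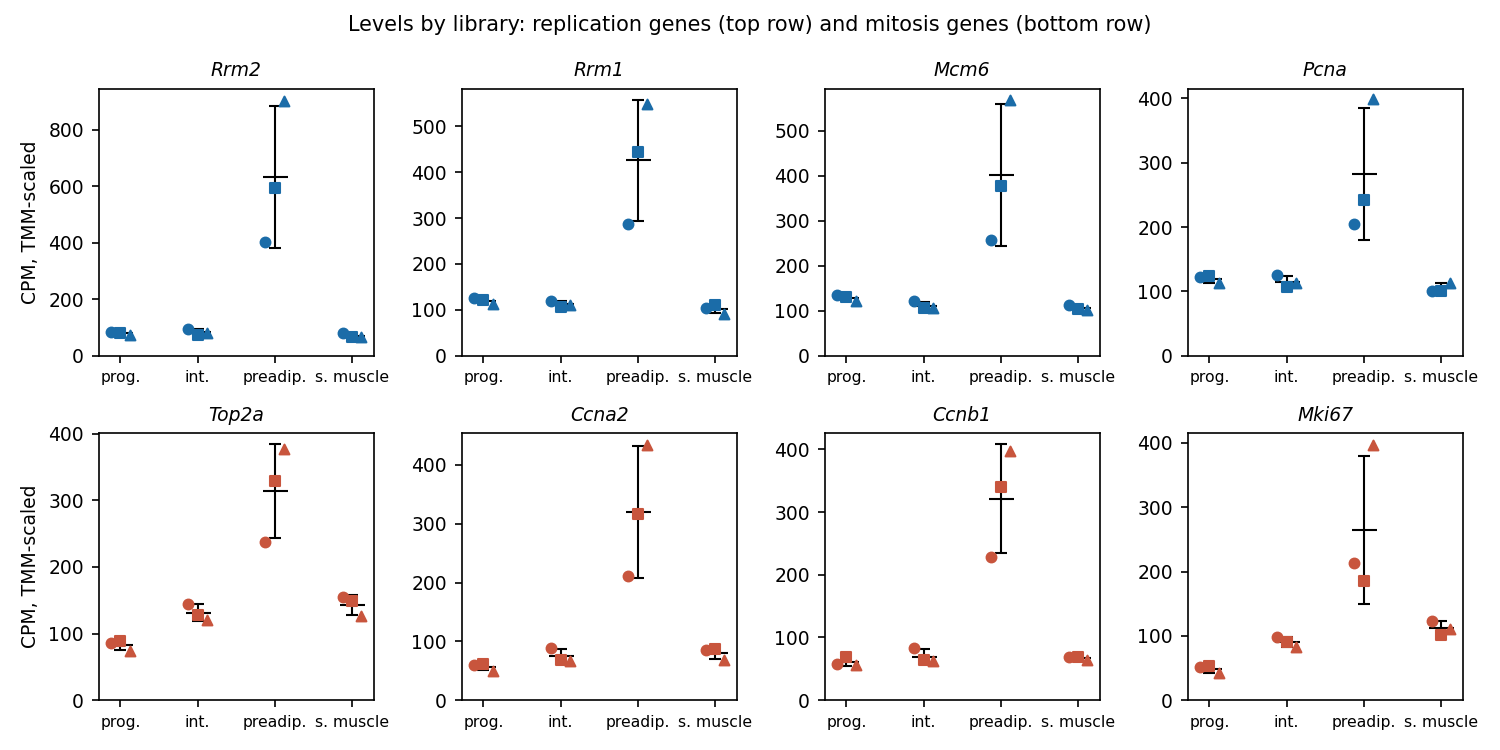
CPM after TMM scaling, from 0, of the 4 most abundant replication genes (blue) and the 4 most abundant mitosis genes (red) in each library, with mean and SD of 3 libraries per population (prog. progenitor, int. intermediate, preadip. preadipocyte, s. muscle smooth muscle; symbols as replicates 1, 2 and 3 in circles, squares and triangles). Preadipocyte is highest in all 8 genes, while Top2a and Mki67 are also called higher in intermediate and smooth muscle than in progenitor. Ccna2, Ccnb1 and the 4 replication genes are not called higher there.

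In the mitosis set, Ube2c and Ccna2 had the largest differences between preadipocyte and progenitor. Ube2c was at 38.1, 48.1 and 35.03 CPM in progenitor, 55.9, 45.1 and 43.9 in intermediate, 174, 201 and 377 in preadipocyte and 61.7, 53.8 and 62.7 in smooth muscle. Preadipocyte replicate 3 was far above the other preadipocyte libraries, and the other populations ran from 35.0 to 62.7 CPM. The difference from progenitor was 6.20-fold by edgeR (log2 fold change 2.63 with SE 0.24, adjusted p = 2.3e-07). Ccna2, the cyclin A of S phase and G2, was at 60.3, 60.7 and 50.3 CPM in progenitor, 89.2, 68.9 and 67.4 in intermediate, 211, 316 and 435 in preadipocyte and 84.9, 86.3 and 68.96 in smooth muscle (log2 fold change 2.49 with SE 0.22, adjusted p = 1.3e-07 against progenitor by edgeR). Ccnb1, the cyclin B that starts mitosis with Cdk1, was at 58.4, 69.3 and 55.3 CPM in progenitor, 82.7, 63.7 and 61.96 in intermediate, 228, 339 and 398 in preadipocyte and 69.00, 69.02 and 63.9 in smooth muscle. Its preadipocyte libraries were all above the highest other library, intermediate replicate 1, and edgeR gave a log2 fold change of 2.40 (SE 0.19, adjusted p = 4.0e-08) against progenitor. Cdk1 had a smaller difference (1.72, adjusted p = 1.0e-06 by edgeR) and a narrow spread in preadipocyte (165, 209 and 185 CPM). Birc5, the survivin subunit of the chromosomal passenger complex, was at 40.4, 45.8 and 30.9 CPM in progenitor, 43.4, 36.7 and 37.3 in intermediate, 186, 199.8 and 246 in preadipocyte and 37.3, 26.8 and 33.2 in smooth muscle. It had the largest difference of the set between preadipocyte and smooth muscle (log2 fold change 2.70 with SE 0.18, adjusted p = 4.8e-09 by edgeR). The mitotic kinases Aurka (2.43), Aurkb (1.97) and Plk1 (2.17), the checkpoint kinases Bub1 (2.01) and Bub1b (2.14) and the anaphase activator Cdc20 (1.81) were each called higher than in progenitor, with estimates from 1.81 to 2.43.

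Levels of different genes were compared per kilobase of annotated exon. This length joins the exons of all annotated transcripts of a gene, so ranks between genes depend on the annotation. Rrm2 was the highest member in preadipocyte at 229 ± 90.9 CPM per kilobase (SD, n = 3). Pcna followed at 118 ± 42.9, then the mitosis genes Ccnb2 at 101.2 ± 21.9, Ube2c at 96.5 ± 42.5 and Cdc20 at 95.03 ± 12.9, and these spreads overlap. In progenitor, intermediate and smooth muscle the highest of both sets was Pcna, at 49.8 ± 2.41, 47.8 ± 4.07 and 43.8 ± 3.18 CPM per kilobase, above Rrm2 at 28.7 ± 2.23, 29.9 ± 4.45 and 26.1 ± 2.87. The lowest of both sets in preadipocyte were Pole at 3.24 ± 0.666 and Cenpf at 3.87 ± 0.391 CPM per kilobase.

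The preadipocyte libraries differed among themselves more than those of any other population. The median coefficient of variation over the replication genes was 36% in preadipocyte and 8.74% to 10.6% in the other populations, and over the mitosis genes 22.5% against 9.18% to 12%. Preadipocyte replicate 1 was the lowest of the 3 for 20 of 20 replication and 18 of 20 mitosis genes. Preadipocyte replicate 3 was the highest for 17 and 14. The replication sums were 2735, 4062 and 5509 CPM, and the mitosis sums 2551, 3324 and 4017 CPM. The red cell markers given above are in the same order, with haemoglobin transcripts at 0.114%, 0.129% and 1.83% of counts. Without preadipocyte replicate 3, 19 replication and 20 mitosis genes were still called higher than in progenitor, with medians of 1.59 and 1.99 when genes and scaling factors were kept. The part of red cell precursors in the level of these genes was not tested.

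In intermediate against progenitor the sets came apart: 7 mitosis genes were called higher and none lower, while 1 replication gene was higher and 1 lower. Over all genes tested, 14.1% were called higher and 13.4% lower. The median log2 fold change was 0.38 over the mitosis set and -0.01 over the replication set, against 0.05 over all genes, and 19 of 20 mitosis estimates were above 0, against 10 of 20 replication estimates. In smooth muscle against progenitor, 9 mitosis genes were higher and none lower, and 1 replication gene was higher and 3 lower, where 30.5% of all genes were called higher and 23.6% lower. The medians were 0.50 for mitosis and -0.12 for replication, against 0.09 over all genes. These comparisons share the progenitor libraries. The gap between the set medians, mitosis minus replication, was 0.40 in intermediate and 0.62 in smooth muscle. It stayed between 0.36 and 0.40 in intermediate and between 0.59 and 0.64 in smooth muscle over 10 other processings. A change of scaling or filter shifts both medians nearly alike, so under those settings the gap could hardly move. Over 24 fits without 1 library it was between 0.35 and 0.46 and between 0.51 and 0.62. In smooth muscle against intermediate, 1 mitosis gene was called higher and 1 replication gene lower (background 15.7% higher, 13.1% lower), with medians of 0.11 and -0.09. The 9 of 20 mitosis genes called in smooth muscle are nearer to their background share of 30.5% than the 7 of 20 in intermediate are to 14.1%. The Schwann cell, neuron and mesothelial markers given above were also higher in smooth muscle, and their part in these differences was not tested.

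**Figure D3:**
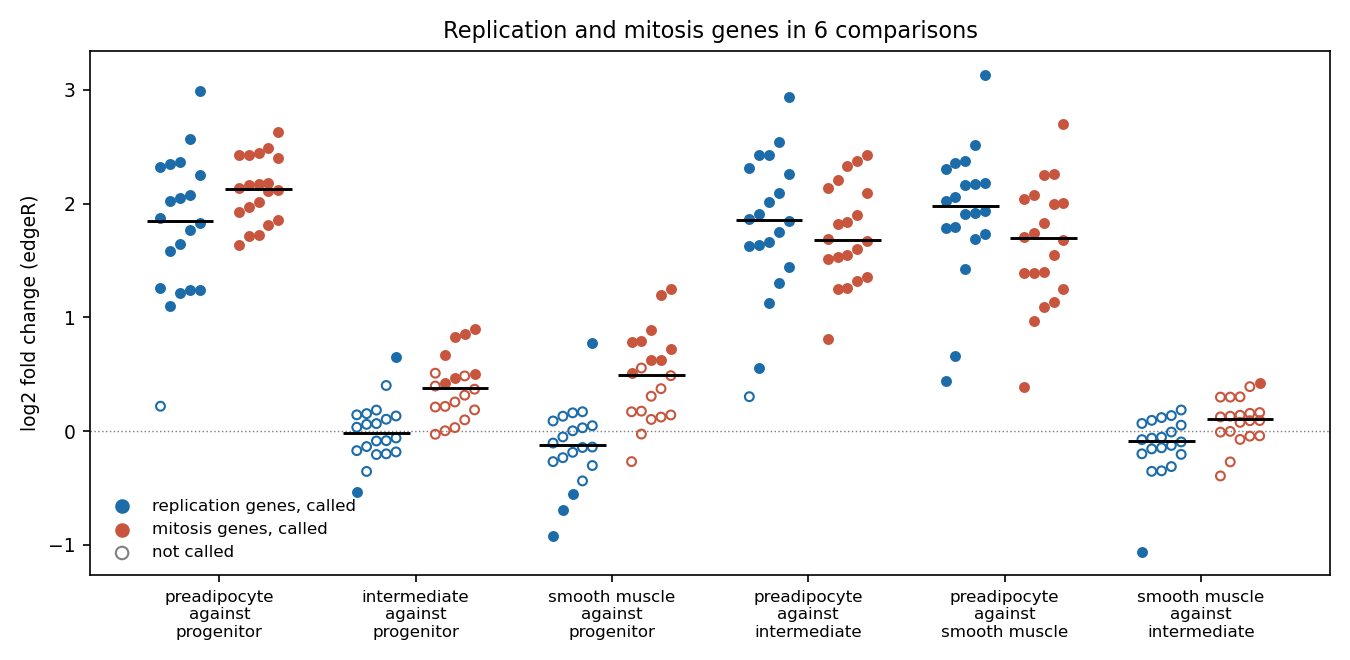
Log2 fold change (edgeR) of each of 20 replication genes (blue) and 20 mitosis genes (red) in 6 comparisons, with the set median as a line; filled points have an adjusted p under 0.05 and open points do not. Nearly all genes lie above 1 in the 3 comparisons of preadipocyte, and in the comparisons of intermediate and smooth muscle with progenitor the mitosis medians (0.38 and 0.50) lie above the replication medians (-0.01 and -0.12).

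The level of each set against progenitor depended on how libraries were scaled. The gap between the sets, which a scaling factor cannot change, stayed within the ranges above. In smooth muscle, scaling by library size alone moved the median of all genes from 0.09 to 0.53 and gave medians of 0.94 for mitosis (19 higher) and 0.32 for replication (3 higher, 0 lower). With the scale computed on all genes without a filter on low counts, the same medians were 0.01 for mitosis (2 higher, 2 lower) and -0.61 for replication (0 higher, 12 lower). In intermediate these settings gave 0.34 and 0.16 for mitosis (5 and 3 higher) and -0.06 and -0.24 for replication. So whether the mitosis set is described as higher, or the replication set as lower, in smooth muscle than in progenitor rests on the scale. The share of higher genes among all called ones moved from 49.2% to 67.6% with library size alone for preadipocyte against progenitor, from 56.4% to 82.8% for smooth muscle against progenitor, from 45.6% to 64.7% for preadipocyte against intermediate and from 54.6% to 89.2% for smooth muscle against intermediate. Without a filter it moved from 51.3% to 35.1% for intermediate against progenitor and from 54.6% to 36.4% for smooth muscle against intermediate. The preadipocyte calls held in each of these, with 19 or 20 replication and 20 mitosis genes higher. Single libraries also moved the counts: with filter and factors set anew, 1, 2 and 4 mitosis genes were higher in intermediate without its replicates 1, 2 and 3, and 4, 3 and 4 without progenitor replicates 1, 2 and 3. With the genes and factors of all libraries kept, the lowest count was 4, without intermediate replicate 1 or progenitor replicate 3.

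Mki67 had the largest difference of the mitosis set between intermediate and progenitor. It was at 50.8, 53.2 and 42.1 CPM in progenitor, 98.7, 90.98 and 82.9 in intermediate, 213, 186 and 397 in preadipocyte and 124, 101.5 and 110.4 in smooth muscle. The populations did not overlap: progenitor was lowest, then intermediate, then smooth muscle, then preadipocyte. Intermediate was 1.86-fold above progenitor (log2 fold change 0.90 with SE 0.22, adjusted p = 0.0082) and smooth muscle 2.30-fold (log2 fold change 1.20 with SE 0.22, adjusted p = 4.0e-04) by edgeR, while intermediate and smooth muscle were not called apart (0.30, adjusted p = 0.33). Cenpf, a large protein of the kinetochore, was at 21.8, 19.01 and 16.7 CPM in progenitor, 33.2, 33.5 and 35.5 in intermediate, 56.6, 55.8 and 66.6 in preadipocyte and 46.3, 46.2 and 44.4 in smooth muscle. Its populations followed the same order without overlap and it was called in all 6 comparisons, with a log2 fold change of 0.83 (SE 0.13, adjusted p = 3.8e-04) in intermediate and a log2 fold change of 1.25 (SE 0.13, adjusted p = 1.9e-06) in smooth muscle against progenitor with edgeR. It was also the mitosis gene called higher in smooth muscle than in intermediate (log2 fold change 0.42 with SE 0.13, adjusted p = 0.025 by edgeR). That call was made in 8 of 10 other processings, and lost without a filter and with the trend of exon length removed. It was made in 5 of 12 fits that left out 1 library with filter and factors set anew. Cenpf and Mki67 were called higher in smooth muscle than in progenitor in all 10 other processings and all 24 fits without 1 library.

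Kif11, the motor that pushes spindle poles apart, was at 29.2, 27.8 and 27.9 CPM in progenitor, 57.6, 50.4 and 45.4 in intermediate, 91.7, 139.6 and 152 in preadipocyte and 54.7, 54.1 and 36.95 in smooth muscle. All intermediate and smooth muscle libraries were above all progenitor libraries, with a log2 fold change of 0.85 (SE 0.19, adjusted p = 0.0045) and a log2 fold change of 0.78 (SE 0.19, adjusted p = 0.003) by edgeR, and overlapped each other. Top2a was at 85.6, 88.2 and 73.9 CPM in progenitor, 145, 129 and 121 in intermediate, 237, 329 and 377 in preadipocyte and 155, 149 and 126 in smooth muscle. It again placed progenitor below both, with a log2 fold change of 0.67 (SE 0.16, adjusted p = 0.0067) in intermediate and a log2 fold change of 0.79 (SE 0.16, adjusted p = 7.6e-04) in smooth muscle by edgeR. Cenpe, a kinetochore motor, Tpx2, which nucleates spindle microtubules, and Cenpa, the centromeric histone, were the other mitosis genes called higher in both (0.50, 0.47 and 0.42 in intermediate, 0.89, 0.63 and 0.72 in smooth muscle). Bub1 (0.62) and Nusap1 (0.51), a spindle protein, were called in smooth muscle and not in intermediate; whether they differed between smooth muscle and intermediate was not shown (adjusted p = 0.68 and 0.99 by edgeR). Of 12 fits that left out 1 library with filter and factors set anew, Cenpf was called in intermediate in 12, Kif11 in 11, Mki67 in 10, Top2a in 9, Tpx2 in 6, Cenpe in 4 and Cenpa in 2, and Bub1 and Nusap1 in smooth muscle in 4 and 2.

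Among the mitosis genes not called in either population, Birc5 was at 0.00 in intermediate and -0.27 in smooth muscle, Plk1 at 0.03 and 0.12, Cdc20 at -0.03 and 0.10 and Aurka at 0.10 and 0.18 against progenitor. These 4 have between 1868 and 3402 annotated exon bases, whereas Cenpf has 15433, Mki67 10061, Top2a 9013, Cenpe 8620 and Kif11 7461. Across the 20 mitosis genes, Spearman's rho between exon length and log2 fold change was 0.79 in intermediate and 0.78 in smooth muscle against progenitor. Of the 10 longer mitosis genes 7 were called in intermediate and 8 in smooth muscle, and of the 10 shorter ones 0 and 1. Across the 20 replication genes rho was -0.07 and 0.25, and the median exon lengths of the sets were alike, 4246 bases for mitosis and 4045 for replication. These points share libraries and scaling, and the trend with length was not particular to the members: over 10175 protein-coding genes with a mean log2 CPM above 3, rho was 0.36 and 0.26. In the tenth of those genes with the shortest exons the median log2 fold change was -0.41 in intermediate and -0.45 in smooth muscle, and in the tenth with the longest 0.18 and 0.10. With that trend removed from each library, an alternative chosen after seeing the data, 7 mitosis genes and 0 replication genes were called higher in intermediate. The set medians were 0.45 and 0.09, against 0.12 over all genes (0.05 in the main fit). In smooth muscle 12 and 1 were called higher, with medians of 0.58 and -0.01, against 0.12 over all genes (0.09 in the main fit). For preadipocyte in the main fit, rho across the mitosis genes was -0.76 against intermediate, -0.76 against smooth muscle and -0.32 against progenitor. Across the replication genes it was 0.12, -0.15 and -0.02, and over the 10175 genes -0.26, -0.28 and -0.14. Against intermediate and smooth muscle, the shorter mitosis genes had medians of 2.11 and 2.02 and the longer ones 1.43 and 1.32.

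**Figure D4:**
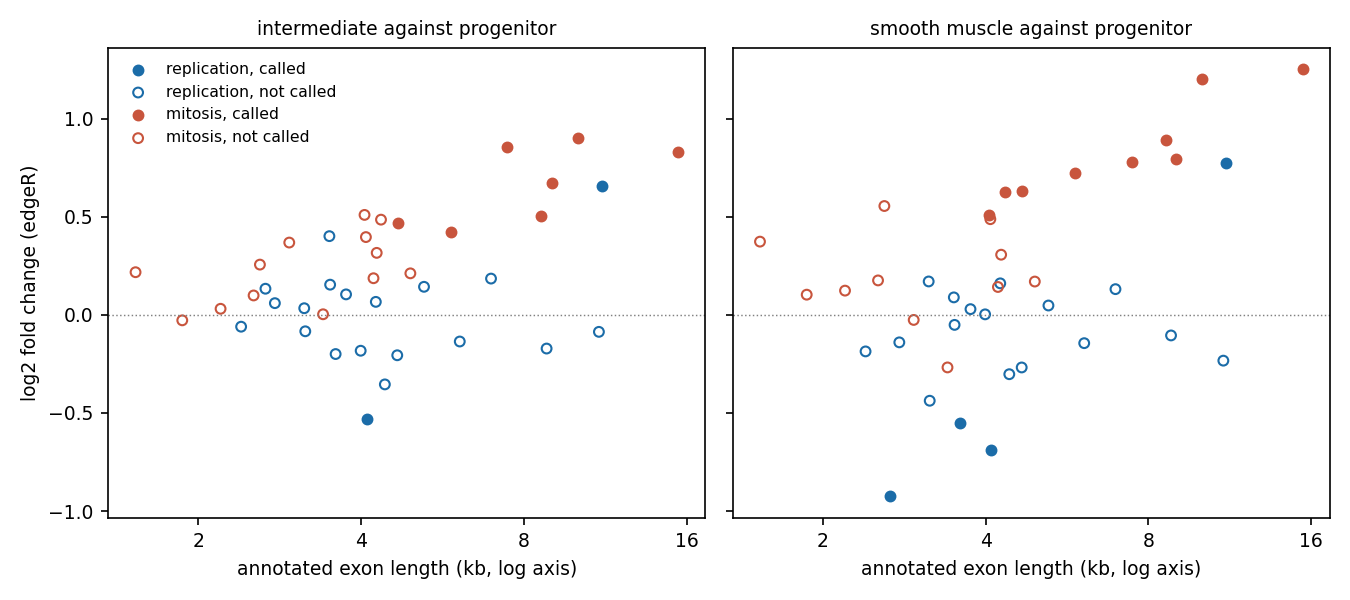
Annotated exon length in kilobases (log axis) against log2 fold change (edgeR) of the 20 replication genes (blue) and 20 mitosis genes (red), in intermediate (left) and smooth muscle (right) against progenitor; filled points have an adjusted p under 0.05. Longer mitosis genes lie higher, with rho of 0.79 and 0.78, while rho is -0.07 and 0.25 for the replication genes.

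The 6 regulators did not move as a group, with 3 of 6 higher and 1 lower in preadipocyte than in progenitor, where 25.1% of all genes were called higher and 25.9% lower. The D cyclins, which activate CDK4 and CDK6 in response to growth signals, changed in different directions. Ccnd1 was at 18.7, 18.9 and 19.7 CPM in progenitor, 18.98, 15.1 and 15.4 in intermediate, 47.6, 32.7 and 21.3 in preadipocyte and 46.1, 46.2 and 47.2 in smooth muscle. The smooth muscle libraries were tightly grouped above all progenitor and intermediate libraries, and the preadipocyte libraries spread over 21.3 to 47.6 CPM with replicate 1 highest, the reverse of their order in the replication genes. By edgeR smooth muscle exceeded progenitor (log2 fold change 1.28 with SE 0.22, adjusted p = 1.7e-04) and intermediate (log2 fold change 1.50 with SE 0.22, adjusted p = 7.0e-05), calls kept in all 10 other processings. Preadipocyte exceeded progenitor by 0.82 (adjusted p = 0.0043) and was not called apart from smooth muscle (-0.46, adjusted p = 0.066). Of the 4709 exon bases of Ccnd1, 1100 overlap LTO1 on the other strand.

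Ccnd2 was at 178, 191 and 185 CPM in progenitor, 329.7, 301 and 330.1 in intermediate, 281, 266 and 195 in preadipocyte and 211, 206 and 249 in smooth muscle. The 3 intermediate libraries were the highest of the 12, with a log2 fold change of 0.80 (SE 0.14, adjusted p = 7.4e-04) against progenitor and -0.53 (adjusted p = 0.0092) for smooth muscle against intermediate with edgeR. Preadipocyte was called above progenitor (0.42, adjusted p = 0.019) and below intermediate (-0.37, adjusted p = 0.032), and both calls were lost in some other fits. That against intermediate was made in 4 of 10 other processings (0.06 with library size alone) and in 5 of 12 fits that left out 1 library with filter and factors set anew, and that against progenitor in 9 of 10 and 6 of 12. Ccnd3 was at 327, 354 and 305 CPM in progenitor, 188, 179.8 and 194 in intermediate, 109, 158 and 216 in preadipocyte and 126, 122 and 145 in smooth muscle. All 3 progenitor libraries were above all others, and the level was lower in preadipocyte (log2 fold change -1.03 with SE 0.18, adjusted p = 2.1e-04), in intermediate (log2 fold change -0.81 with SE 0.18, adjusted p = 0.0049) and in smooth muscle (log2 fold change -1.33 with SE 0.19, adjusted p = 3.0e-05) by edgeR. Within preadipocyte Ccnd3 was lowest in replicate 1 and highest in replicate 3, opposite to Ccnd1. Per kilobase of exon, Ccnd3 made up 61.2% ± 1.67 (SD, n = 3) of the 3 D cyclins in progenitor, against 30.8% ± 0.349 in smooth muscle, 36.3% ± 0.707 in intermediate and 35.7% ± 12.9 in preadipocyte. In the same order, Ccnd2 made up 32.1% ± 1.23, 48.7% ± 1.07, 57.8% ± 0.323 and 50.5% ± 8.05, and Ccnd1 6.66% ± 0.462, 20.5% ± 1.37, 5.94% ± 0.649 and 13.8% ± 5.14. These shares do not depend on library scaling but do depend on the annotated exon lengths. On this scale the largest D cyclin transcript was Ccnd3 in every progenitor library and in preadipocyte replicate 3, and Ccnd2 in all others.

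The inhibitors also differed among themselves. Cdkn2c, which encodes p18, an inhibitor of CDK4 and CDK6, was at 14.4, 14.02 and 13.1 CPM in progenitor, 23.3, 21.7 and 23.3 in intermediate, 53.2, 77.3 and 52.7 in preadipocyte and 25.8, 26.7 and 24.7 in smooth muscle. It was lowest in progenitor and highest in preadipocyte without overlap, with a log2 fold change of 2.14 (SE 0.16, adjusted p = 2.1e-08) with edgeR, and was the 1 regulator whose lowest preadipocyte library lay above all others. It was also higher in intermediate (0.72, adjusted p = 0.004) and smooth muscle (0.89, adjusted p = 2.3e-04) than in progenitor by edgeR. Cdkn1b, which encodes p27, was scarce, at 4.73, 5.20 and 5.16 CPM in progenitor, 6.42, 6.01 and 8.18 in intermediate, 4.16, 4.71 and 4.79 in preadipocyte and 7.60, 7.32 and 8.13 in smooth muscle. It was higher in smooth muscle than in progenitor (0.61, adjusted p = 0.014) and lower in preadipocyte than in smooth muscle (-0.75, adjusted p = 0.0028) and intermediate (-0.59, adjusted p = 0.016) by edgeR. These calls were made in 9, 8 and 6 of 10 other processings and in 6, 8 and 8 of 12 fits that left out 1 library with filter and factors set anew. Cdkn1a, which encodes the p53-induced inhibitor p21, was at 116, 134 and 129 CPM in progenitor, 100.6, 97.7 and 113 in intermediate, 137, 151 and 109 in preadipocyte and 138, 145 and 212 in smooth muscle. Preadipocyte did not differ from progenitor beyond the spread (0.06, adjusted p = 0.78 by edgeR), and the 1 call was for smooth muscle above intermediate (0.67, adjusted p = 0.0065).

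**Figure D5:**
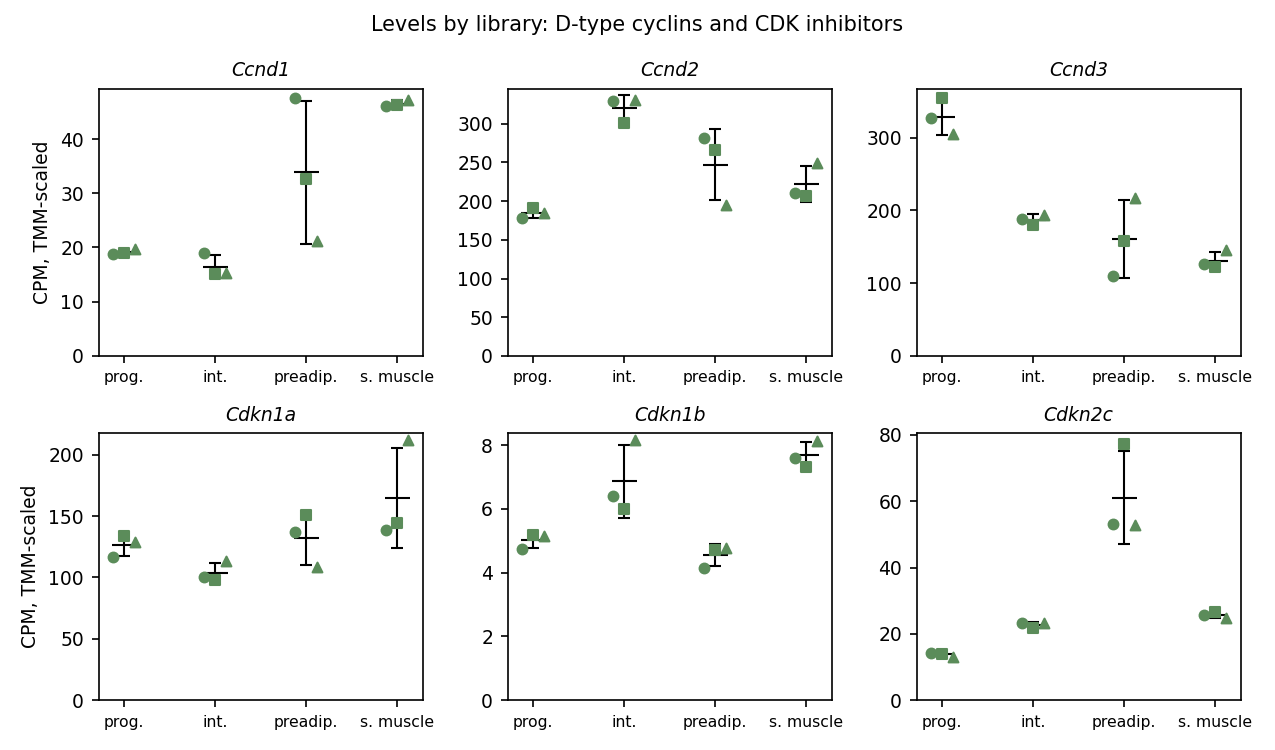
CPM after TMM scaling, from 0, of 3 D cyclin genes and 3 CDK inhibitor genes in each library, with mean and SD of 3 libraries per population (circles, squares and triangles for replicates 1, 2 and 3). Ccnd3 is highest in progenitor, Ccnd2 in intermediate, Ccnd1 is highest in smooth muscle and in 1 preadipocyte library, and Cdkn2c is highest in preadipocyte.

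Further genes of the same steps are read against the shares over all genes, 25.1% higher and 25.9% lower in preadipocyte, 14.1% and 13.4% in intermediate and 30.5% and 23.6% in smooth muscle, each against progenitor. Of 50 further replication genes, all 50 were called higher in preadipocyte than in progenitor (median 1.44), 0 were higher and 5 lower in intermediate, and 2 were higher and 19 lower in smooth muscle (median -0.19, against 0.09 over all genes). The 5 of 50 lower in intermediate are below the share over all genes. Counts of the further genes are from the main fit alone. For the 20 replication members in smooth muscle against progenitor, library size alone gave 3 higher and 0 lower, and no filter 0 and 12. Of 68 further mitosis genes, all 68 were called higher in preadipocyte (median 1.87), 26 were higher and 1 lower in intermediate (median 0.43), and 39 were higher and 1 lower in smooth muscle (median 0.59). The gene called lower in both was Cks1b, a CDK subunit, at 118, 133 and 126 CPM in progenitor, 99.2, 78.6 and 92.3 in intermediate, 241, 262 and 267 in preadipocyte and 69.9, 69.1 and 79.6 in smooth muscle. Asf1b, a histone chaperone of replicating chromatin, was at 26.2, 28.5 and 21.6 CPM in progenitor, 23.3, 16.7 and 18.6 in intermediate, 112, 153 and 155 in preadipocyte and 12.98, 11.4 and 8.83 in smooth muscle, and like Ccne1 was lower in smooth muscle than in progenitor (log2 fold change -1.19 with SE 0.19, adjusted p = 9.5e-05 by edgeR). The clamp loader Rfc4 (-0.98) and the single-strand binding protein Rpa3 (-0.47) were lower in smooth muscle too, while Tk1, thymidine kinase, was not called there (0.05). Of the named further mitosis genes, the kinetochore gene Cenpw had log2 fold changes against progenitor of 2.70 in preadipocyte and 0.77 in smooth muscle, and Cdca3 and the checkpoint gene Mad2l1 2.35 and 1.96 in preadipocyte. In the promoters of these lists CHR letters were found in 37 of 58 further mitosis genes (63.8%) and 7 of 40 further replication genes (17.5%), and E2F letters in 6 (10.3%) and 12 (30%).

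Among the factors upstream of both sets, Foxm1 was low in progenitor and E2f2 and E2f8 were high in preadipocyte. Of 19 genes of the E2F, RB and MuvB families, 16 were called higher and 1 lower in preadipocyte than in progenitor, 4 and 0 in intermediate, and 4 and 4 in smooth muscle. Against the shares over all genes given above, the count in preadipocyte is high, the 4 higher in intermediate are near 14.1%, and both counts in smooth muscle are at or below 30.5% and 23.6%. Foxm1, the activator of mitosis genes, was at 16.4, 16.1 and 16.5 CPM in progenitor, 43.6, 40.8 and 36.4 in intermediate, 53.4, 70.5 and 47.3 in preadipocyte and 51.1, 44.02 and 39.2 in smooth muscle. Progenitor was below every other library, with a log2 fold change of 1.30 (SE 0.16, adjusted p = 3.2e-05) in intermediate and a log2 fold change of 1.45 (SE 0.16, adjusted p = 2.8e-06) in smooth muscle with edgeR, and preadipocyte was not called apart from smooth muscle (0.35, adjusted p = 0.059). E2f2, an activator E2F, was at 3.73, 4.10 and 2.75 CPM in progenitor and 30.6, 29.1 and 104 in preadipocyte (log2 fold change 3.95 with SE 0.44, adjusted p = 1.9e-06 by edgeR), with replicate 3, the library rich in red cell transcripts, more than 3 times the others. The repressor E2f8 rose in preadipocyte by 2.72, and the E2F partner Tfdp1 rose there by 1.01 and was lower in smooth muscle (-0.58, adjusted p = 0.0011 by edgeR).

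A further list held CDK, cyclin and CDK inhibitor genes and other cell cycle regulators such as Cdc25a, Wee1 and Skp2. Of its 17 genes tested (18 listed), 13 were higher and 2 lower in preadipocyte than in progenitor, 0 and 4 in intermediate, and 4 and 6 in smooth muscle. The shares over all genes were 25.1% and 25.9%, 14.1% and 13.4%, and 30.5% and 23.6%. The counts in smooth muscle are near those shares. Cdkn1c, which encodes the inhibitor p57, was at 305, 319 and 341 CPM in progenitor, 82.5, 81.95 and 105 in intermediate, 70.99, 62.3 and 55.3 in preadipocyte and 26.8, 30.2 and 39.9 in smooth muscle. All progenitor libraries were above all others, by edgeR with a log2 fold change of -2.36 (SE 0.16, adjusted p = 1.1e-08) in preadipocyte and a log2 fold change of -3.32 (SE 0.17, adjusted p = 5.5e-10) in smooth muscle. Cdk6 was at 30.7, 38.9 and 32.96 CPM in progenitor, 38.1, 38.9 and 45.97 in intermediate, 95.1, 97.97 and 90.8 in preadipocyte and 104, 97.3 and 104 in smooth muscle, and so was high in smooth muscle along with Ccnd1. Cdk4 was higher in preadipocyte (0.80) and lower in smooth muscle (-0.75) than in progenitor, and Cdkn3 was higher in preadipocyte (2.11).

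Of 20 genes of the p53 pathway upstream of and parallel to Cdkn1a (Trp53 itself and 19 genes listed as its targets), 3 were higher and 10 lower in preadipocyte than in progenitor, 0 and 5 in intermediate, and 0 and 10 in smooth muscle, against shares lower over all genes of 25.9%, 13.4% and 23.6%. Plk2 (-2.25), Gadd45b (-2.03) and Gadd45g (-1.85), which are also induced by stress, were lower in preadipocyte, and Aen (1.31), a nuclease, was higher. Of 14 early response genes of growth factor signalling, upstream of the D cyclins, 1 was higher and 9 lower in preadipocyte, 1 and 5 in intermediate, and 4 and 7 in smooth muscle. Over all genes 25.9%, 13.4% and 23.6% were lower, and the 4 of 14 higher in smooth muscle are below the 30.5% over all genes. Ier3 (-1.97), Myc (-0.59) and Spry2 (-1.07) were lower in preadipocyte than in progenitor, while Mycn was higher in smooth muscle (3.04), at 24.4, 28.5 and 27.5 CPM against 2.41, 4.24 and 3.08 in progenitor.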

How the data were processed

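RNA was taken from 12 libraries of 4 sorted populations, 3 libraries each. The authors deposited 1 table of raw counts per gene (whole numbers, not normalised). The submitters' processing notes name STAR 2.5.2a, DESeq2 1.26.0 and mm10. Which tool counted reads, on what annotation and with what strand setting, is not given in the sources used here. Identifiers were named from GENCODE (36480 of 36512), whose annotated exons on mm10 also gave coordinates and lengths. A length joins the exons of all transcripts of a gene. Exons of 15 members overlap those of another gene, and their counts are uncertain to that extent.

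The counts were fitted with edgeR 4.0.16 in R 4.3.3 (filterByExpr, TMM scaling, quasi-likelihood test, 1 fit over all 12 libraries without a replicate term), with Benjamini-Hochberg adjustment over the 21285 genes tested and a threshold of 0.05. Tested genes held 99.3% to 99.9% of counts, and the common coefficient of variation between replicates was 0.20. Each gene had 1 dispersion for all 4 populations, although preadipocyte libraries varied more than the others. An SE therefore reflects the spread pooled over the 12 libraries and not only that of the populations compared. With the compared populations alone, 12 mitosis genes were called higher than in progenitor in intermediate (7 in the main fit) and 12 in smooth muscle (9 in the main fit). A count of 0 allowed up to 0.175 to 0.256 CPM (3 counts, counting error only). Set levels are means of log2(CPM + 1).

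The members and all lists were chosen with earlier results of these data known. Values in every library are given for the 4 most abundant members of each set, the regulators, and the 2 called members with the largest positive and negative fold change in each set and comparison; further lists are named by up to 4 genes with the smallest p of the F test over populations. Other members were added after their values were seen. Promoter windows are RefSeq's (GRCm38.p6) and were searched on both strands.

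Alternatives were other scalings (median-ratio factors, library size alone), no filter, at least 5 CPM in 3 libraries, DESeq2 1.42.0, limma-voom 3.58.1, the compared populations alone, a replicate block, an even background subtracted and each library left out. Removing the exon length trend, and leaving out libraries with genes and factors kept, were chosen after seeing the data.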

Additional observations from a re-analysis of the deposited data

How the results depend on the processing

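Nearly all preadipocyte calls of the replication and mitosis sets were kept: against progenitor 19 or 20 replication and 20 mitosis genes stayed higher in all 10 other processings and in the fits that left out 1 library (19 to 19 and 20 to 20). Against smooth muscle, 19 replication genes were higher with background subtracted or the length trend removed, and 19 mitosis genes with background subtracted. With 1 library left out the counts were 19 to 20 and 20 to 20 against intermediate, and 18 to 20 and 19 to 20 against smooth muscle (lowest without smooth muscle replicate 2 and preadipocyte replicate 3, with genes and factors kept), and the genes called in all were 9624 to 10723, 10491 to 12980 and 12689 to 15556. Counts in intermediate and smooth muscle moved, as follows, and the cause was not tested.

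For intermediate against progenitor, replication genes higher were 0 without a filter, 2 with the populations fitted alone and 0 with the length trend removed, and those lower were 2 and 2 in the first and second of these settings. Mitosis genes higher were 3 without a filter and 12 with the populations alone. For smooth muscle against progenitor, 17437 genes were called without a filter and 6948 with at least 5 CPM. Replication genes higher were 3 with library size alone and 0 without a filter, and those lower were 0, 12 and, with the populations alone, 5. Mitosis genes higher were 19 with library size alone and 2 without a filter, where 2 were lower. For preadipocyte against smooth muscle 9347 genes were called with at least 5 CPM, and the share of higher ones moved from 38.9% to 49.5% (48.2% with the populations alone). For smooth muscle against intermediate, library size alone called 10454 genes, with 6 replication and 16 mitosis genes higher. There, replication genes lower were 3 without a filter and 4 with the populations alone. Mitosis genes higher were 0 without a filter (2 lower), 2 with at least 5 CPM, 3 with background subtracted, 2 with the populations alone (1 lower) and 0 with the length trend removed.

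With 1 library left out, intermediate against progenitor gave 3429 to 7658 genes called (3780, or 3860 with genes and factors kept, without progenitor replicate 1, and 3885 with genes and factors kept without progenitor replicate 2), 1 to 9 mitosis genes higher, 0 to 1 replication genes higher and 0 to 1 lower. Smooth muscle against progenitor gave 9623 to 14201 genes, 3 to 12 mitosis genes higher and 0 to 2 lower, and 0 to 1 replication genes higher and 2 to 10 lower. The 10 lower arose without any 1 of the intermediate libraries, with filter and factors set anew, where 4 mitosis genes were higher. Without progenitor replicate 2 they were 8 and 3. With genes and factors kept, 2 to 4 and 7 to 12 remained. Smooth muscle against intermediate gave 4596 to 7586 genes, 0 to 2 mitosis genes higher and 0 to 1 lower, and 1 to 2 replication genes lower.

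The set difference (replication minus mitosis) was 0.60 in progenitor, -0.10 in smooth muscle, 0.14 in intermediate and 0.28 in preadipocyte as a log2 ratio of summed CPM. As a difference of medians over members it was 0.61, 0.28, 0.20 and -0.065 in progenitor, intermediate, preadipocyte and smooth muscle, so that preadipocyte lay below intermediate. With 1 library left out it was 0.36 to 0.42 in progenitor, -0.24 to -0.17 in smooth muscle, -0.01 to 0.05 in intermediate and -0.04 to 0.14 in preadipocyte.

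With library size alone the sign changed for Ccnd2 in preadipocyte against intermediate (0.058), for Cdc45 (0.39) and Aurkb (0.42) in smooth muscle against progenitor, and for Tyms (0.48), Cdk1 (0.45), Ccnb1 (0.45) and Bub1b (0.48) in smooth muscle against intermediate.

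Same-numbered libraries did not deviate together (r from -0.16 to 0.21), so the numbers were not taken as pairs. With the replicate number as a block, 5 mitosis genes were higher in intermediate and 8 in smooth muscle than in progenitor, and 19 replication and 20 mitosis genes in preadipocyte.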
